A study of Rattus norvegicus with 9 samples.

Results

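The transcription factor NRF2 (gene Nfe2l2), its inhibitor KEAP1 (gene Keap1) and 5 genes that NRF2 is known to activate (Hmox1, Nqo1, Gclc, Gclm and Slc7a11) were followed through 9 RNA-seq libraries of HBZY-1 cells. These 7 genes were selected by their Ensembl rat identifiers, in that order ENSRNOG00000001548, ENSRNOG00000020878, ENSRNOG00000014117, ENSRNOG00000012772, ENSRNOG00000006302, ENSRNOG00000013409 and ENSRNOG00000010210, and all 7 were found among the 30560 genes of the deposited table. HBZY-1 is an established rat cell line of glomerular mesangial origin; mesangial cells hold the capillary loops of the glomerulus together and can contract. The 3 groups, each of 3 libraries described as biological replicates, were named control, LPS-induced, and high-dose water extract, the extract being made from lyophilized powder of the leech Poecilobdella manillensis. Lipopolysaccharide (LPS) is a bacterial outer membrane component used to provoke inflammation in culture. The labels give no dose or duration. They do not say whether the extract cells also received LPS, what the control cells were given, or whether the replicates came from separate cultures, so p-values measure only the spread between these libraries. All groups come from 1 cell line, and the cells were sampled in bulk. The line was not checked against mesangial markers here, because the table pairs no identifier with a name.

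NRF2 is a basic leucine zipper transcription factor. In resting cells KEAP1, an adaptor of the cullin-3 ubiquitin ligase, binds NRF2 and directs it to the proteasome. Oxidants and electrophiles modify cysteines of KEAP1, NRF2 then escapes degradation, enters the nucleus, pairs with small MAF proteins and binds antioxidant response elements near its target genes. NRF2 is therefore regulated largely at the level of protein stability, which RNA abundance does not measure. In the kidney the pathway is known for limiting oxidative injury.

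The promoters of Gclm, Nfe2l2 and Nqo1 are shown because they differ in whether they hold the core letters of an antioxidant response element, TGACNNNGC, within 250 bases before to 50 bases after the annotated start. The sequences are from RefSeq, build GRCr8, were matched by symbol and are given 5′ to 3′ on the strand of the gene, with any match in capitals. The windows are chr2:213031885-213032184 on the plus strand for Gclm, chr3:81028950-81029249 on the minus strand for Nfe2l2 and chr19:52220218-52220517 on the minus strand for Nqo1.
Gclm: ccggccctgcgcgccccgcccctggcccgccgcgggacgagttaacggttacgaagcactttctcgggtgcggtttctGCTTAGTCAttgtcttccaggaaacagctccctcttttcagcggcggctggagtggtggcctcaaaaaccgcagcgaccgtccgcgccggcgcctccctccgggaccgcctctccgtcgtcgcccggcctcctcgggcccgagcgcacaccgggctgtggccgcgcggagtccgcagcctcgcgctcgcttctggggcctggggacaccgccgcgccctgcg
Nfe2l2: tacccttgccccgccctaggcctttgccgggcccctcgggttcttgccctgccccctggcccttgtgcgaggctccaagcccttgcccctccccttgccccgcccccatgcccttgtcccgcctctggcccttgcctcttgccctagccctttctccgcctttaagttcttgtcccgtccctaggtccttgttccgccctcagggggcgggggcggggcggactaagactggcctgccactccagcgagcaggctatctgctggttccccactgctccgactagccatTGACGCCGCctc
Nqo1: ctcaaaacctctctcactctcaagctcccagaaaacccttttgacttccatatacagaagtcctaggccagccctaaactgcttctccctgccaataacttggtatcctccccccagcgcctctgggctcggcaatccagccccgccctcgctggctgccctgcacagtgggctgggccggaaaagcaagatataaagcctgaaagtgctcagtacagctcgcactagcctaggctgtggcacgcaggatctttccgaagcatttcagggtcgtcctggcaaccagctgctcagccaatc
In Gclm the match lies on the opposite strand, where it reads TGACTAAGC, and its first base in the printed direction is at position -172 from the start. In Nfe2l2 the match is on the printed strand, TGACGCCGC, beginning at position 39 after the start. No match was found in the Nqo1 window. Windows were given for 6 of the 7 genes, and those of Keap1, Gclc and Slc7a11 also held none. Sequence beyond these windows was not searched, so a window without a match does not show that the gene lacks the element. Searched on both strands, the core was present in 12.1% of all 33469 promoter windows of the same length, so 2 of 6 windows is a description of these letters and not evidence of binding. The AP-1 element TGANTCA, which can overlap an antioxidant response element, was found in none of the 6 windows and in 7.33% of all windows.

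Abundances are the authors' TPM, scaled within a library after division by transcript length, so that levels of different genes can be compared. Sequencing depth is unknown, since TPM keeps none. Each library had between 15479 and 15837 genes above 0 TPM. All 7 genes passed the filter of a mean of at least 1 TPM, their lowest library value being 25.29 TPM. Tests were made with limma on log2(TPM + 1) over 12192 genes, and fold changes below are on that scale unless called ratios of mean TPM. A gene was called changed at a Benjamini-Hochberg adjusted p below 0.05. In bulk RNA a shift in every cell and a shift in the share of cells that express a gene cannot be told apart.

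Nqo1 had the largest fold change of the 7 genes in each of the 3 comparisons. Its mRNA was about halved in LPS cells and stood more than 4 times above control in extract cells. Gclc and Gclm, which encode the 2 subunits of one enzyme, had the same order of groups, extract above control above LPS, with smaller differences. Hmox1 and Nfe2l2 itself were lower in extract than in control cells, and Slc7a11 had its highest mean in LPS cells.

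**Figure D1:**
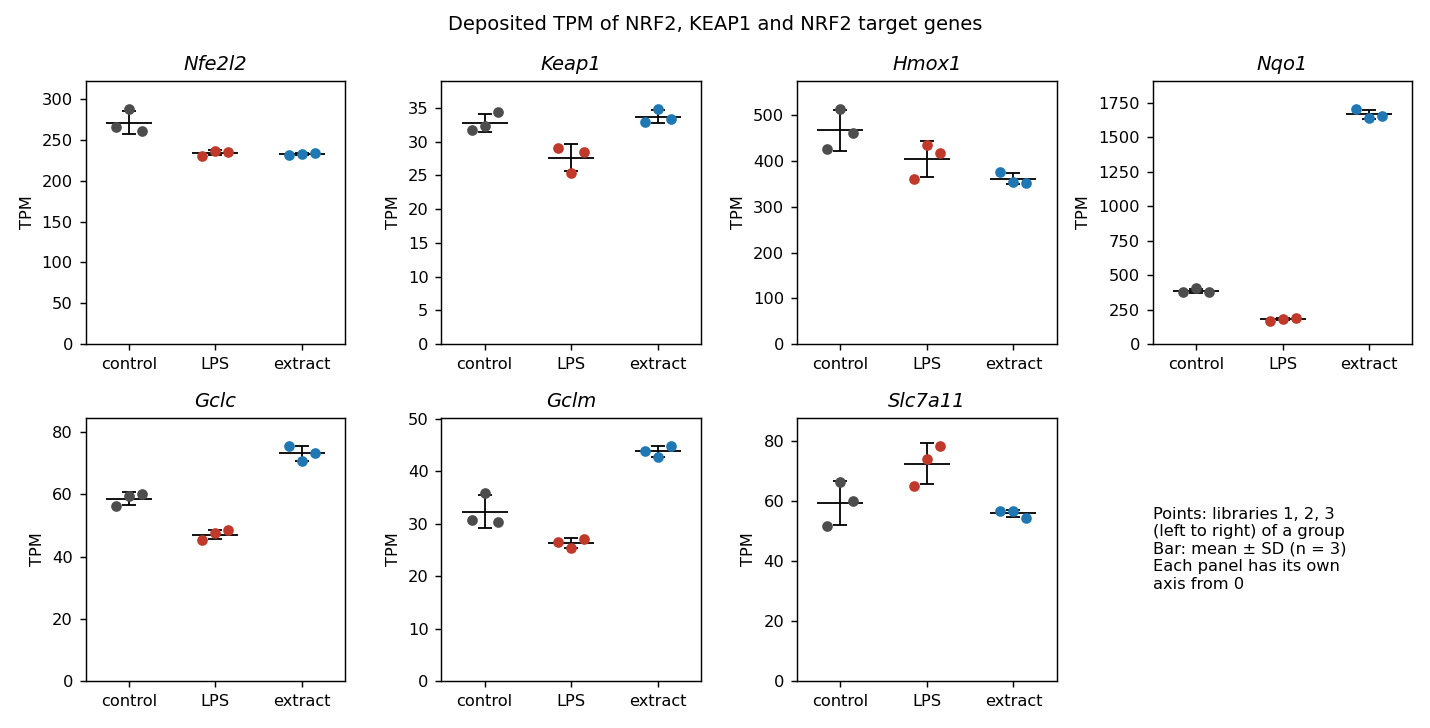
TPM of each gene (y axis, starting at 0 and scaled per gene) in the 3 control, 3 LPS and 3 extract libraries (x axis), with points for libraries and bars for the mean ± SD. Nqo1, Gclc and Gclm show 3 separate groups with extract highest, whereas Nfe2l2 and Hmox1 are highest on average in control and Slc7a11 in LPS libraries.

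The regulator was described first. Nfe2l2 stood at 265.54, 287.41 and 260.48 TPM in the control libraries 1 to 3, at 230.68, 236.87 and 234.75 TPM in the LPS libraries, and at 232.03, 232.58 and 233.32 TPM in the extract libraries. All 3 control libraries were above the other 6, and the LPS and extract libraries overlapped. With a mean of 271.1 ± 14.3 TPM (SD, n = 3) it ranked 510 among all genes in control cells, against 573 (LPS) and 583 (extract). Against control, LPS cells gave a log2 fold change of -0.21 ± 0.037 (SE; limma adjusted p = 0.00171) and extract cells one of -0.22 ± 0.037 (limma adjusted p = 0.000907). After median-of-ratios rescaling (each library divided by its median ratio to the average library) the first was -0.12 and was no longer called (limma adjusted p = 0.0516), whereas the second stayed called at -0.17 (limma adjusted p = 0.00583). Extract and LPS cells differed by -0.01 ± 0.037, with a 95% interval from -0.09 to 0.08 (limma adjusted p = 0.857).

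Keap1, the inhibitor, was between 6.69 and 9.32 times less abundant than Nfe2l2 in every library. It was measured at 31.74, 32.3 and 34.32 TPM in control, 29.04, 25.41 and 28.42 TPM in LPS, and 32.87, 34.78 and 33.39 TPM in extract libraries. The 3 LPS libraries were the lowest of the 9, and the control and extract libraries overlapped. Keap1 was lower in LPS than in control cells, with a difference of -0.24 ± 0.055 on the log2 scale (limma adjusted p = 0.00692), or -0.15 with median-of-ratios or quantile scaling (limma adjusted p = 0.0381 and 0.0366). Extract cells held more Keap1 mRNA than LPS cells, by 0.28 ± 0.055 (limma adjusted p = 0.00175). Between extract and control the difference was 0.04 ± 0.055, with a 95% interval from -0.09 to 0.16 (limma adjusted p = 0.594).

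The ratio of Nfe2l2 to Keap1 TPM within a library is unchanged by a single scaling factor per library, but quantile scaling can change it. It was 8.37, 8.90 and 7.59 in control, 7.94, 9.32 and 8.26 in LPS, and 7.06, 6.69 and 6.99 in extract libraries. Every extract library lay below the other 6, while control and LPS libraries overlapped. The gene that differed was not the same in both comparisons. Against LPS the log2 fold change was 0.28 for Keap1 and -0.01 for Nfe2l2, and against control 0.04 for Keap1 and -0.22 for Nfe2l2. The mean ratio was 6.91 ± 0.197 (SD, n = 3) in extract cells, 8.51 ± 0.722 in LPS cells and 8.28 ± 0.658 in control cells. In an exact permutation test, two-sided, extract differed from LPS and from control at p = 0.1 each, the smallest value that 3 against 3 libraries can give, so the design cannot pass 0.05. LPS and control gave p = 0.8 (exact permutation test).

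**Figure D2:**
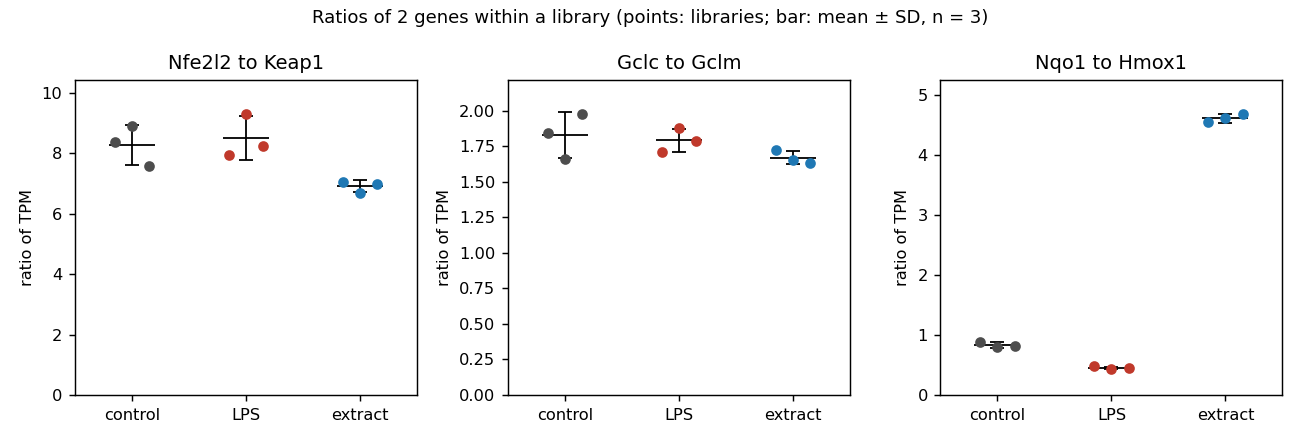
Ratio of the TPM of 2 genes within a library (y axis, from 0) for the 3 groups (x axis), with points for libraries and bars for the mean ± SD. The extract libraries are the lowest for Nfe2l2 to Keap1, overlap control for Gclc to Gclm, and lie between 4.54 and 4.69 for Nqo1 to Hmox1, where all other libraries are below 1.

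Nqo1 encodes NAD(P)H quinone dehydrogenase 1, which reduces quinones by transfer of an electron pair. The gene is a widely used readout of NRF2 activity, which was not measured here. Its TPM was 375.56, 406.08 and 379.15 in control, 171.14, 185.83 and 186.79 in LPS, and 1703.44, 1638.63 and 1654.96 in extract libraries. The 3 groups did not overlap anywhere, and the spread within a group was small, with coefficients of variation of 4.31% (control), 4.84% (LPS) and 2.02% (extract). Nqo1 ranked 351 among all 30560 genes by mean TPM in control cells, 748 in LPS cells and 85 in extract cells.

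LPS cells differed from control cells in Nqo1 by -1.09 ± 0.043 on the log2 scale (limma adjusted p = 1.47e-07), a mean of 181.3 ± 8.77 TPM against 386.9 ± 16.7 TPM (SD, n = 3). It was the 177th lowest log2 fold change among the 12192 tested genes. In extract versus LPS it rose by 3.19 ± 0.043 (limma adjusted p = 1.97e-10), to 1666 ± 33.7 TPM, a ratio of mean TPM of 9.19. Only 6 tested genes had a higher log2 fold change in that comparison, and 1 had a smaller p. Against control the log2 fold change was 2.104 ± 0.043 (limma adjusted p = 1.72e-09), a ratio of 4.30.

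Gclc encodes the catalytic subunit and Gclm the modifier subunit of glutamate-cysteine ligase, the rate-limiting enzyme of glutathione synthesis. Gclc stood at 56.37, 59.53 and 60.09 TPM in control, 45.36, 47.44 and 48.42 TPM in LPS, and 75.58, 70.69 and 73.34 TPM in extract libraries. Gclm stood at 30.63, 35.88 and 30.34 TPM in control, 26.52, 25.29 and 27.11 TPM in LPS, and 43.82, 42.79 and 44.84 TPM in extract libraries. For both genes the 3 groups were fully separate, with LPS lowest and extract highest.

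LPS versus control gave log2 values of -0.31 ± 0.041 for Gclc (limma adjusted p = 0.000306) and -0.28 ± 0.062 for Gclm (limma adjusted p = 0.00572). After median-of-ratios rescaling these were smaller, -0.22 for Gclc (limma adjusted p = 0.00333) and -0.19 for Gclm (limma adjusted p = 0.0352), and both stayed called. Extract cells exceeded LPS cells in both, Gclc by 0.63 ± 0.041 (limma adjusted p = 1.48e-06) and Gclm by 0.72 ± 0.062 (limma adjusted p = 8.5e-06). Both were also above control in extract cells, by 0.31 ± 0.041 for Gclc (limma adjusted p = 0.000183) and 0.43 ± 0.062 for Gclm (limma adjusted p = 0.000316). As ratios of mean TPM, extract cells held 1.25 times the Gclc and 1.36 times the Gclm of control cells, against 4.30 times for Nqo1.

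The proportion of catalytic to modifier subunit mRNA was compared within libraries. The Gclc to Gclm ratio was 1.84, 1.66 and 1.98 in control, 1.71, 1.88 and 1.79 in LPS, and 1.72, 1.65 and 1.64 in extract libraries. Each pair of groups overlapped. Exact permutation tests, two-sided, gave p = 0.9 for LPS versus control and p = 0.2 for each of the other 2 comparisons, none of which could have gone below 0.1. No difference in this proportion was shown with 3 libraries per group, which is not evidence that it was equal.

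Hmox1 encodes heme oxygenase 1, which breaks down heme and is induced by NRF2 and by other stress pathways. It was the most abundant of the 7 genes in control and LPS cells. Its TPM was 425.77, 513.07 and 461.47 in control, 360.93, 434.3 and 418.43 in LPS, and 375.01, 355.22 and 352.72 in extract libraries. The LPS libraries overlapped both other groups, and all 3 extract libraries lay below all 3 control libraries. The only call was that extract cells were below control cells, at -0.37 ± 0.079 on the log2 scale (limma adjusted p = 0.00364).

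LPS versus control gave -0.21 ± 0.079 for Hmox1 (limma adjusted p = 0.0637). That difference passed the threshold without control replicate 1 (-0.27, limma adjusted p = 0.034) or without LPS replicate 2 (-0.26, limma adjusted p = 0.0484), and was smaller after median-of-ratios rescaling (-0.11, limma adjusted p = 0.334), without control replicate 2 (-0.14, limma adjusted p = 0.202) or without LPS replicate 1 (-0.13, limma adjusted p = 0.199). Extract versus LPS gave -0.16 ± 0.079, with a 95% interval from -0.34 to 0.02 (limma adjusted p = 0.11), and became a call without LPS replicate 1, the lowest LPS library, at -0.24 (limma adjusted p = 0.0195). The ratio of Nqo1 to Hmox1 TPM was 0.882, 0.791 and 0.822 in control, 0.474, 0.428 and 0.446 in LPS, and 4.54, 4.61 and 4.69 in extract libraries. This pair was chosen after its values were seen and its ratio was not tested.

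Slc7a11 encodes xCT, the light chain of the transporter that takes up cystine in exchange for glutamate and supplies cysteine for glutathione. Its TPM was 51.77, 66.23 and 60.1 in control, 64.96, 74.06 and 78.34 in LPS, and 56.54, 56.54 and 54.37 in extract libraries. The LPS libraries were above all extract libraries, while control overlapped both other groups. Extract cells held less Slc7a11 mRNA than LPS cells, at -0.37 ± 0.089 on the log2 scale (limma adjusted p = 0.00579), opposite in sign to Nqo1, Gclc and Gclm.

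In LPS versus control Slc7a11 was the 1 gene of the 7 that was higher, by 0.29 ± 0.089 (limma adjusted p = 0.0296). That call was lost without control replicate 1 (0.19, limma adjusted p = 0.0941), control replicate 3 (0.30, limma adjusted p = 0.0679), LPS replicate 2 (0.27, limma adjusted p = 0.0903) or LPS replicate 3 (0.23, limma adjusted p = 0.0986). It was also lost with no filter on low values (limma adjusted p = 0.06) and with only the 2 groups compared in the fit (limma adjusted p = 0.074). These are 6 of 18 alternatives, and the call stayed under the other 12. Among those were median-of-ratios scaling (0.38, limma adjusted p = 0.00908) and quantile scaling (0.34, limma adjusted p = 0.013). Extract versus control gave -0.08 ± 0.089, with a 95% interval from -0.28 to 0.12 (limma adjusted p = 0.483).

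**Figure D3:**
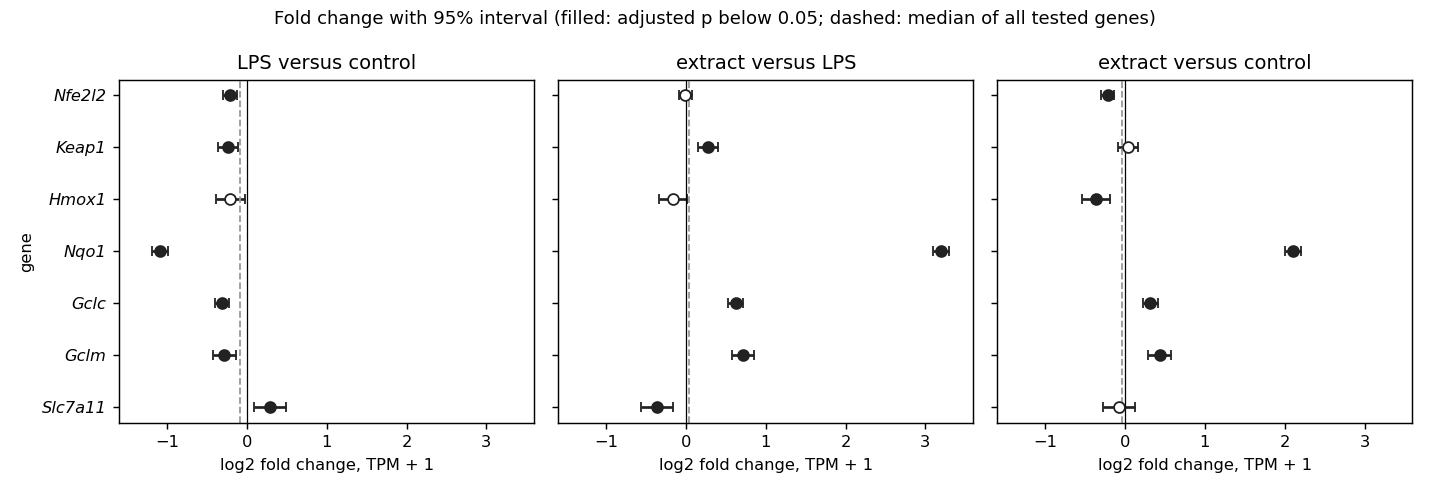
Log2 fold change of TPM + 1 (x axis) for the 7 genes (y axis) in the 3 comparisons, with 95% intervals from limma, filled points for an adjusted p below 0.05, and a dashed line at the median of all tested genes. Nqo1 lies apart from the other 6 genes in every panel, at -1.09, 3.19 and 2.104.

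Counted together, 6 of the 7 genes were called in LPS versus control, 5 lower and 1 higher, where 40.7% of all tested genes were called, 30.9% lower and 9.79% higher. After median-of-ratios rescaling the calls over all genes were 2264 lower and 2117 higher, in place of 3769 and 1193. The median log2 fold change was -0.24 over the 7 genes and -0.08 over all tested genes. In extract versus LPS 5 of the 7 were called, Keap1, Nqo1, Gclc and Gclm higher and Slc7a11 lower, where 59.4% of tested genes were called, 34.4% higher and 25% lower, and the medians were 0.28 and 0.04. In extract versus control 5 of the 7 were called, Nqo1, Gclc and Gclm higher and Nfe2l2 and Hmox1 lower, where 51.7% were called, 22.3% higher and 29.4% lower, and the medians were 0.04 and -0.04. Libraries did not overlap for 5 of the 7 genes in each comparison, against 50.1% (LPS versus control), 65.1% (extract versus LPS) and 61.1% (extract versus control) of tested genes. So many genes were called that the number of these 7 past the test says little in itself in any of the 3 comparisons. In LPS versus control that number was 5 after median-of-ratios rescaling, and the 7 were chosen with earlier results of these data known. Sizes of change say more, but for each called gene other than Nqo1 many tested genes changed further in the same direction. In LPS versus control Gclc, Gclm, Keap1 and Nfe2l2 were 2021st, 2328th, 2880th and 3366th lowest, and Slc7a11 872nd highest. In extract versus LPS Gclm, Gclc and Keap1 were 799th, 1041st and 3051st highest, and Slc7a11 1623rd lowest. In extract versus control Gclm and Gclc were 1054th and 1631st highest, and Hmox1 and Nfe2l2 1738th and 3239th lowest. The 3 comparisons share libraries and are not independent of each other.

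The order of the genes by mean TPM differed between groups. In control cells it was Hmox1, Nqo1, Nfe2l2, Slc7a11, Gclc, Keap1 and Gclm, with overlapping libraries between Slc7a11 and Gclc and between Keap1 and Gclm. In LPS cells Nfe2l2 was above Nqo1, and the only neighbours with overlapping libraries were Keap1 and Gclm. In extract cells Nqo1 was highest, 4.61 times above Hmox1, and Keap1 was lowest, with no overlap between neighbours. Control replicate 2 held the highest control value for 5 of the 7 genes, all but Keap1 and Gclc. LPS replicate 3 held the highest LPS value for 4 genes. Extract replicate 1 held the highest extract value for 4, with Slc7a11 tied between extract replicates 1 and 2. The same count over all genes was not made.

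Transcript values showed which isoforms carried these levels. Consecutive transcript rows summed to the TPM of the gene within rounding for all 7 genes, which linked 13 transcripts to them, and 10 of these reached a mean of 1 TPM and were tested among 19383. Both transcripts of Nqo1 were called in the same direction in each comparison. ENSRNOT00000112166 held 89.0% ± 0.535 (control), 88.9% ± 1.08 (LPS) and 88.1% ± 0.803 (extract) of the gene's TPM (SD, n = 3), and ENSRNOT00000017174 nearly all the rest. In extract versus LPS their log2 fold changes were 3.18 ± 0.049 (limma adjusted p = 8.75e-09) and 3.24 ± 0.067 (limma adjusted p = 3.8e-08).

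The transcripts of Keap1 did not both pass the test. ENSRNOT00000101216, the main one, stood at 27.92, 27.7 and 30.9 TPM in control, 24.33, 21.23 and 23.91 TPM in LPS and 27.54, 29.31 and 29.34 TPM in extract libraries. It was lower in LPS than in control cells by -0.31 ± 0.066 on the log2 scale (limma adjusted p = 0.0116). ENSRNOT00000028360, at 3.42 to 5.47 TPM over the 9 libraries, gave 0.15 ± 0.13 in the same comparison (limma adjusted p = 0.462), and the difference between both transcripts was not tested.

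One transcript carried almost all of Nfe2l2, Gclc and Slc7a11, and Hmox1 and Gclm had 1 expressed transcript each. For Nfe2l2 the mean share of ENSRNOT00000002114 was between 98.0% and 98.8% in the 3 groups. A minor Nfe2l2 transcript, ENSRNOT00000110389, was listed at 7.5 TPM in control replicate 2, 11.15 TPM in LPS replicate 2 and 7.43 TPM in extract replicate 1, and at 0.1 TPM or less in the other 6 libraries, so its level did not follow the groups. Of the 10 tested transcripts, 7 were called for LPS against control, 6 for extract against LPS and 6 for extract against control, where 23%, 39.1% and 32% of all tested transcripts were called.

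**Figure D4:**
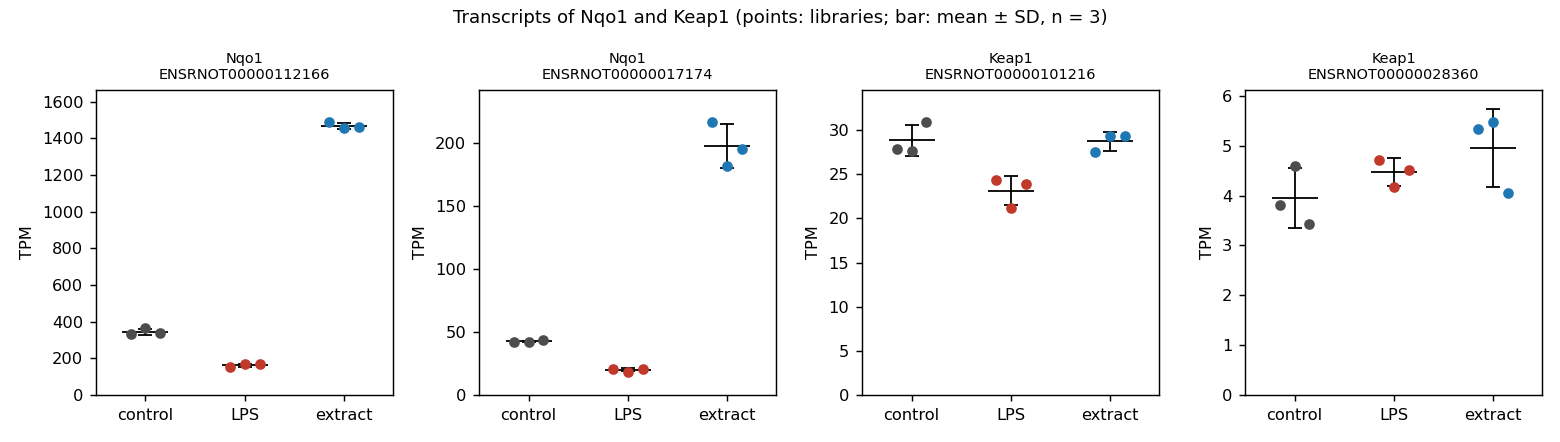
TPM (y axis, from 0) of the 2 transcripts each of Nqo1 and Keap1 in the 3 groups (x axis), with points for libraries and bars for the mean ± SD. Both Nqo1 transcripts are highest in extract and lowest in LPS libraries, whereas of the Keap1 transcripts only the main one is lowest in LPS libraries.

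The genes whose pattern was most like that of Nfe2l2 were ENSRNOG00000038933 (Pearson's r = 0.984 over the 9 libraries) and ENSRNOG00000065409 (r = 0.981), out of 12185 other tested genes. Both were highest in control cells, at a mean of 498.0 and 29.8 TPM, against 365.5 and 24.5 TPM in LPS and 352.4 and 24.4 TPM in extract cells. The libraries fall into 3 groups, so these values describe a shared order of group means. Both were also picked as the highest r among many genes, which alone favours high values. With the genes followed here, the r of Nfe2l2 was 0.85 for Hmox1, 0.25 for Keap1 and -0.02 for Gclc. It was -0.08 for Gclm, -0.09 for Slc7a11 and -0.19 for Nqo1.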

How the data were processed

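RNA-seq abundances of genes and transcripts in 9 libraries were used. The authors deposited them as TPM, rounded to 2 decimals, and each library sums to 1000000. Tools listed in the submitters' processing notes are RSEM 1.3.3, HISAT2 2.1.0 and fastp, with no roles or settings. Strandedness, annotation and genome build are not given in the sources of this work, so reads of overlapping or antisense genes cannot be separated. Columns were matched to libraries by the code that opens each title.

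Members and lists were chosen with earlier results of these data known. The 7 symbols were supplied with the identifiers. The tables pair none with a name, and 0 identifiers matched the supplied RefSeq table (GRCr8), so 73 further list entries fixed by symbol (other NRF2 targets, partners, glutathione genes, cell type markers) were not analysed here. Named were the 7 members and the 2 genes most like Nfe2l2.

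Group means were modelled in 1 fit with limma 3.58.1 (R 4.3.3) on log2(TPM + 1) for all genes averaging 1 TPM or more over the 9 libraries, using moderated two-sided tests with a mean-variance trend and 6 residual degrees of freedom, with Benjamini-Hochberg adjustment over all genes tested, and likewise for transcripts. A fold change on this scale understates that of low genes. The procedure was tested on simulated data with independent noise and far fewer changed genes than were called here. That simulation does not test the scaling of libraries. Transcripts were linked to a gene where consecutive rows summed to its TPM within 0.006 TPM per rounded value. For Slc7a11 2 runs of rows did so, and the run with the smallest deviation was kept. Alternatives were pseudocounts of 0.1 and 5, no filter or 5 TPM, median-of-ratios and quantile scaling, a replicate block, 2-group fits, no trend, and leaving out each library.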

Additional observations from a re-analysis of the deposited data

How the results depend on the processing

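Of 21 fold changes (7 genes in 3 comparisons), 16 kept their direction and their side of the threshold under all 18 alternatives, and the other 5, with their values, are given in the report except for 1 change of sign: Slc7a11 in extract versus control, at -0.08 with all libraries, was 0.00063 without control replicate 2 (limma adjusted p = 0.998) and lowest, at -0.17, without control replicate 1. The uncalled extract versus control difference of Keap1 ranged from 0.02 to 0.08. The numbers of genes and of member transcripts called in either direction stayed within 1.5 times under each alternative, while the higher and lower genes of LPS versus control, 1193 and 3769 as deposited, were 2117 and 2264 with median-of-ratios and 1940 and 2402 with quantile scaling. Median-of-ratios scaling moved the median of all genes by 0.09 in LPS versus control.

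With 1 library left out, the log2 difference of the Gclc to Gclm ratio in LPS versus control (-0.03 with all) ranged from -0.0934 to 0.0343 and changed sign without control replicate 3 (0.0343) or LPS replicate 1 (0.0067), and that of Nfe2l2 to Keap1 (0.04 with all) ranged from -0.0294 to 0.0912 and changed sign without control replicate 3 (-0.02) or LPS replicate 2 (-0.0294). The cause was not tested. Replicate numbers were not taken to pair libraries. Deviations of same-numbered libraries correlated between -0.06 and 0.10, and those of differently numbered libraries between -0.11 and 0.09. Of the 9 libraries, 6 deviated most like one of their own number, so these values do not settle whether the numbers mark pairs. With the replicate block, 6, 5 and 5 of the 7 genes were called, as without it, and the ratio of Nfe2l2 to Keap1 in extract versus LPS had an exact p of 0.25, the smallest that 3 pairs allow. Without read depth, the counting error of each value is unknown.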
